A study of Rattus norvegicus with 6 samples.

Results

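The genes described here are 36 lysosomal genes: hydrolases, lysosomal membrane proteins, subunits of the vacuolar proton pump (V-ATPase) and the Rag and folliculin genes that tie the lysosome to growth signalling. The rule takes them by gene name, and each of the 36 names matched exactly 1 of the 34257 genes in the deposited table. RNA came from neonatal rat ventricular cardiomyocytes, heart muscle cells isolated from newborn rats and cultured, which received either perhexiline at 1 µM for 24 h or vehicle. Poly(A) RNA of 3 libraries per group was sequenced, with 13616252 to 16702523 fragments per library recovered from the values. Whether replicates of a group were different cultures or different animals is not in the labels, and all p-values therefore describe the variation among these 6 libraries, part or all of which could be technical. The labels state no age beyond neonatal, no strain, and neither the composition of the vehicle nor how long it was given.

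Lysosomes break down proteins, sugars and lipids with hydrolases that work in acid, and the V-ATPase pumps in the protons that make them acid. Many lysosomal genes carry the CLEAR motif, a CACGTG-centred sequence near the start of transcription, and are switched on by the transcription factors TFEB, TFE3 and MITF. These factors are held in the cytoplasm when Rag GTPases on the lysosome, with folliculin and its partners, signal that nutrients are plentiful. Perhexiline is an antianginal drug with a basic amine and a greasy ring system, a cationic amphiphilic compound of the kind that collects in acid lysosomes and can slow the breakdown of lipids there. The comparison asks whether the RNA of these genes differed between drug-treated and vehicle-treated cells.

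The CLEAR-type sequences of the members are shown first, because they are the shared feature by which these genes are known as a group. RefSeq start-site regions of 300 bases (250 before and 50 after the start, build GRCr8) were at hand for 28 of the 36 genes. The entries missing were those of Atp6v0d2, Atp6v1b2, Atp6v1h, Ctsb, Hexa, Psap, Rragc and Rragd. The hexamer CACGTG, which reads the same on both strands, was in 8 of the 28 regions, against 6.42% of all 33469 regions of that length and 9.18% of those of tested genes. The longer TCACGTG, searched on both strands and always overlapping the hexamer, was in 7 of 28 (3.20% of all regions), and TCACGTGA in 5 of 28 (0.777%). TCACGTGA with a further G before and C after it was in 0 of 28 and in 0.233% of all regions. Since genes of this kind are known from such motifs, these shares describe the choice of genes and are no finding of the experiment.

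Regions of 4 genes are printed 5′ to 3′ on the strand of the gene, with CACGTG and, where present, its flanking T or A of the longer motif in capitals. Lamp1 (chr16:83075014-83075313, minus strand) held the hexamer 5 times, more than any other of the 28 regions, and Mcoln1 (chr12:6358008-6358307, plus strand) and Ctsd (chr1:206968772-206969071, minus strand) held it 2 times each. Cd63 (chr7:1921894-1922193, plus strand), the member with the smallest adjusted p, held it 1 time and without the flanking bases.
Lamp1: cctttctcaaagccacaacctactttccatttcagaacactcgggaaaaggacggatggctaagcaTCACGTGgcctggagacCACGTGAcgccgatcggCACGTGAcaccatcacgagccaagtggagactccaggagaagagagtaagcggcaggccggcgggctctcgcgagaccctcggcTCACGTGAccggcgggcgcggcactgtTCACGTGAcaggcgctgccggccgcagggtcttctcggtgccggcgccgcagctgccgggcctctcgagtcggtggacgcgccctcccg
Mcoln1: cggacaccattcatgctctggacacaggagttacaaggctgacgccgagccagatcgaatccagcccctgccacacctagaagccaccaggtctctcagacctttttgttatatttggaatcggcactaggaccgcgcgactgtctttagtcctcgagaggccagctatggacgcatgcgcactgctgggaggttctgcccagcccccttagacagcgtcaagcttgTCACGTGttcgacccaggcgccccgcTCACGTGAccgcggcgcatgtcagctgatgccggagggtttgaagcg
Ctsd: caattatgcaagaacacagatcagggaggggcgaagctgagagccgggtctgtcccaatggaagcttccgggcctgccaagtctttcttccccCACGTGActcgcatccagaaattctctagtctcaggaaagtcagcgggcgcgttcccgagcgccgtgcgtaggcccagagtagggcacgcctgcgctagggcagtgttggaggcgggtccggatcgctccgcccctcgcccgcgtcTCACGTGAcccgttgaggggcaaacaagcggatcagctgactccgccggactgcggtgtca
Cd63: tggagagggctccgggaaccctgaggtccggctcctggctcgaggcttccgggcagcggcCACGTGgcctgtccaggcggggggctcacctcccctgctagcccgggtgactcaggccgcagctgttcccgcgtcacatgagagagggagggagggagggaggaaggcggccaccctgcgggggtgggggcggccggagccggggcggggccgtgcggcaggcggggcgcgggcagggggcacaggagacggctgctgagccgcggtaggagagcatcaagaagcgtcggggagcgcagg
The centre of the hexamer lay at -180, -164, -147, -62 and -35 from the start in Lamp1, at -19 and 7 in Mcoln1, at -154 and -7 in Ctsd and at -187 in Cd63. The other regions with a match were those of Cln3, Gaa, Glb1 and Atp6v0d1. A match is a run of letters and does not show that a factor binds there.

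Few of these genes differed with perhexiline. Of 35 members tested, 2 rose and none fell: the tetraspanin gene Cd63 and the Rag GTPase gene Rragc. Calls are those of limma on log2(FPKM + 1) at a Benjamini-Hochberg adjusted p under 0.05. The adjustment was over all 13460 genes that reached 1 FPKM in 3 or more libraries. FPKM stands for fragments per kilobase of gene length, with 1 scaling factor per library. The deposited factors were not set by the recovered totals alone. A single fragment per kilobase was 0.06541 FPKM in vehicle replicate 2, with 15241994 fragments. It was lower, 0.06366, in perhexiline replicate 2, which had fewer fragments (14863929). Median-of-ratios factors of the deposited values were 1 to 1.013. Over all tested genes 6.66% were called, with 3.55% higher and 3.11% lower, so the members' 5.71% was near the background. For 14 members the groups were fully separate, 8 higher and 6 lower with perhexiline, beside 31.9% of all tested genes (17.0% higher and 14.9% lower). Among all called genes 53.3% were higher, and 70.7% under total-fragment scaling. The median log2 difference of the members was -0.01 with 17 of 35 above 0, and 0.05 with 24 above 0 under total-fragment scaling. Over all tested genes the median was 0.01, and 0.06 under that scaling. Their median size regardless of sign was 0.09, against 0.12 for all tested genes. Most members were more abundant than the median tested gene, and this comparison was not matched for level. At an unadjusted p under 0.05 there were 10 members, and 3460 of all tested genes.

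**Figure D1:**
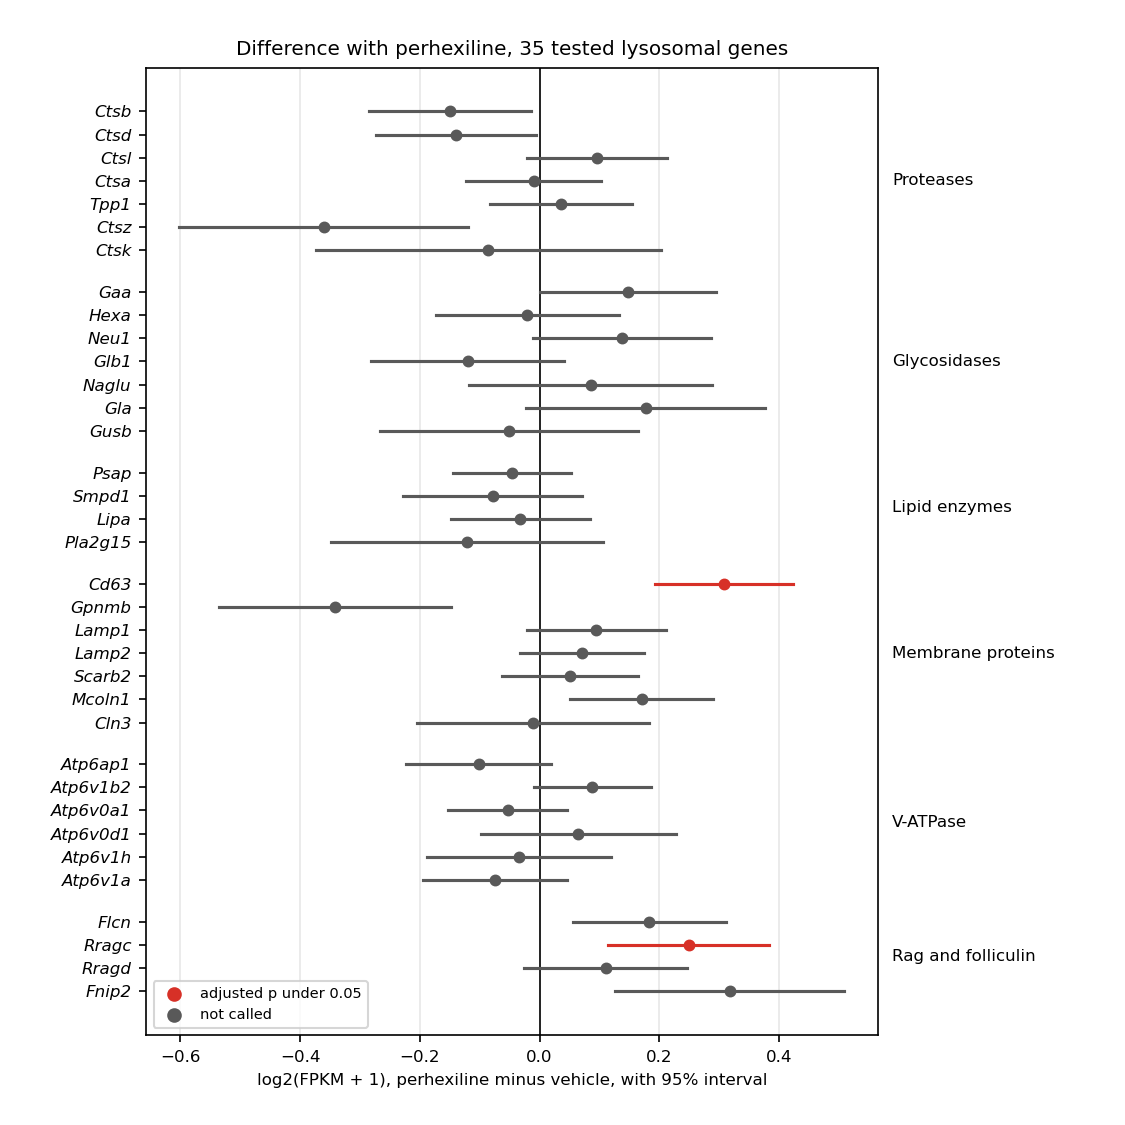
Difference in log2(FPKM + 1) between perhexiline and vehicle for the 35 tested members, grouped by role, as points with limma's 95% interval. Red marks the members with an adjusted p under 0.05, Cd63 at 0.31 and Rragc at 0.25, and most others lie within 0.2 of 0 on either side.

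The intervals show how large an unseen change could be. For 32 of the 35 tested members the 95% interval of the log2 difference lay wholly within 0.5 of 0, and for 26 it lay within 0.3. Over all tested genes, not matched to the members for level, these counts were 10097 and 5248 of 13460. The members' values ranged from a log2 difference of -0.36 in Ctsz to 0.32 in Fnip2. Summed over the 36 members, FPKM was 3469, 3573 and 3525 with vehicle and 3597, 3537 and 3501 with perhexiline. The groups of sums overlapped, and their means differed by 0.645%. The members took 0.748% to 0.793% of the fragments of a vehicle library and 0.789% to 0.806% of those of a perhexiline library.

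**Figure D2:**
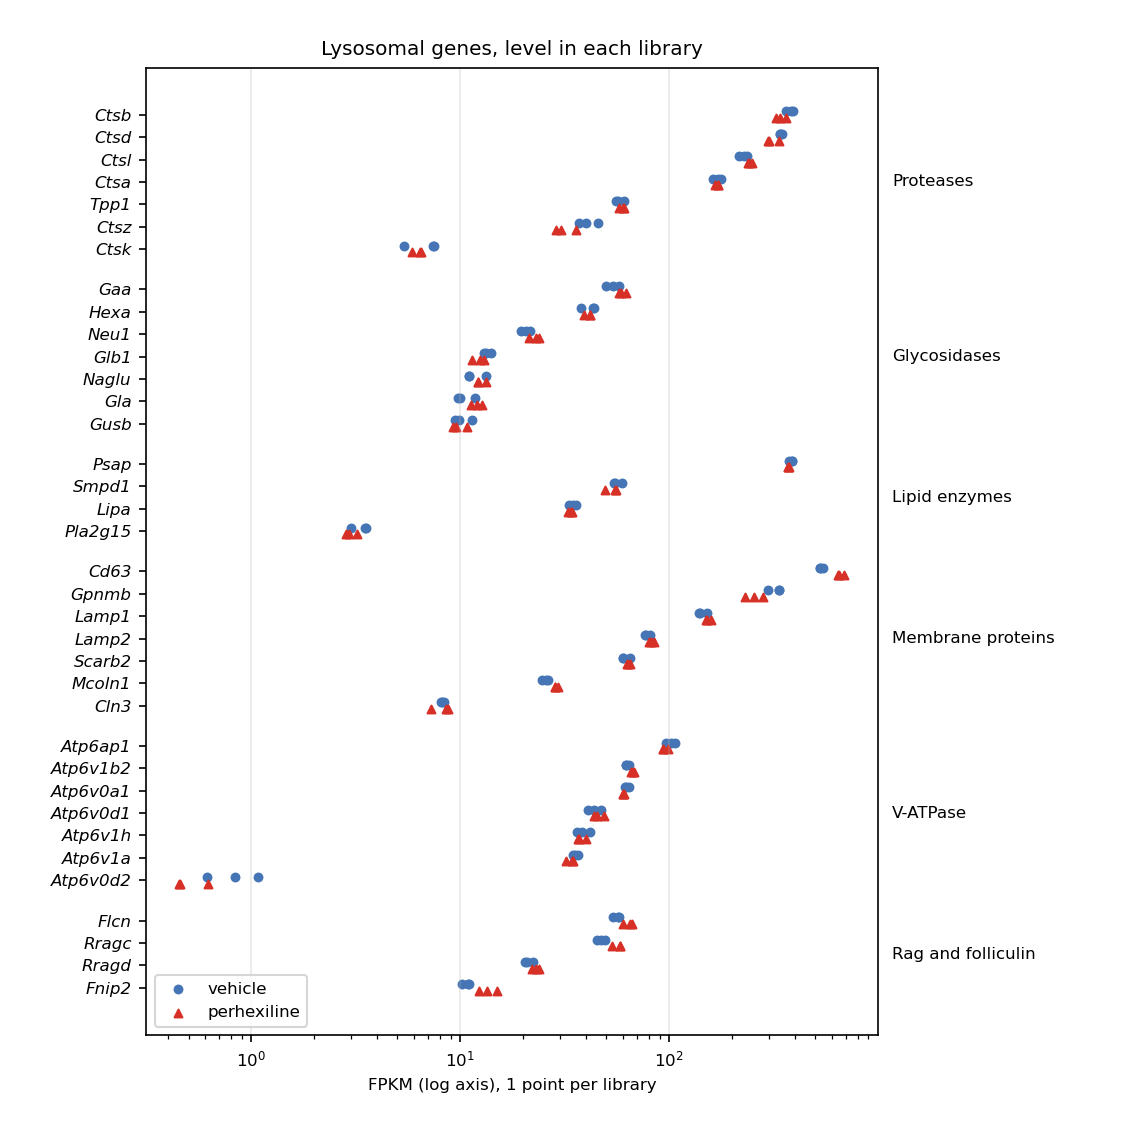
FPKM of the 36 members in each of the 6 libraries on a log axis, grouped by role, with vehicle libraries as blue circles and perhexiline libraries as red triangles. Levels span from under 1 FPKM for Atp6v0d2 to 689.6 FPKM for Cd63, and for most genes the colours lie together.

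The lysosomal membrane proteins held the largest called change. Cd63 encodes a tetraspanin of late endosomes, lysosomes and secreted vesicles (chromosome 7, 3320103 to 3335582, in the deposited coordinates, for which the sources used here give no build). It stood at 529.7, 544 and 527 FPKM with vehicle and at 646, 689.6 and 648 with perhexiline. Every perhexiline library was above every vehicle library. Cd63 rose 1.24-fold, from 533.5 ± 9.52 to 661 ± 24.7 FPKM (means with their SD, from 3 libraries each, here and below). The difference on the log2 scale was 0.31, with an SE of 0.049 (limma adjusted p = 0.0207). Its share of the summed FPKM of all 36 members went from 15.2% ± 0.184 to 18.7% ± 0.781. The call was lost in 4 of 6 fits that left out 1 library, those without vehicle replicate 1 or 2 or without perhexiline replicate 2 or 3 (adjusted p up to 0.077, log2 differences of 0.28 to 0.32), and when genes of low level were not filtered out (0.0623). With limma-voom on the recovered fragments the adjusted p was 0.00595.

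Gpnmb stood apart in the other direction. It encodes a transmembrane glycoprotein of melanosomes and lysosomes that is abundant in macrophages and osteoclasts (chromosome 4, 78694447 to 78715683). It stood at 299, 337 and 337 FPKM with vehicle and at 281, 231 and 256 with perhexiline. The groups did not overlap, and perhexiline replicate 2 was the lowest. The means were 324 ± 22.1 and 256 ± 25.2 FPKM, and the difference on the log2 scale, -0.34 ± 0.083 (SE), did not pass in this fit (limma adjusted p = 0.0534). It passed, as lower, with a mean FPKM of at least 5, under upper-quartile scaling, with limma-voom and without perhexiline replicate 1, and over the fits without 1 library its adjusted p ran from 0.0362 to 0.147. Within each library the ratio of Cd63 to Gpnmb does not depend on scaling, and it was 1.77, 1.61 and 1.56 with vehicle and 2.30, 2.98 and 2.53 with perhexiline. Its separation follows from that of each gene, in opposite directions.

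Markers of macrophages and other leukocytes were lower in the libraries in which Gpnmb was lower. Of 18 marker symbols 17 were in the table and 12 were tested, of which 4 fell (Laptm5, Mrc1, Tyrobp and C1qa) and none rose, and all 12 differences were below 0. When 1 library was left out, 0 to 5 of these markers fell, with 0 when vehicle replicate 1 or 2 or perhexiline replicate 3 was missing, and those tested were all below 0. Their summed level was 132 to 144 FPKM in vehicle libraries and 69.9 to 110.4 in perhexiline libraries, lowest in perhexiline replicate 2. Summed markers of fibroblasts and of smooth muscle and pericytes were also lowest in that library. Summed markers of cardiomyocytes, endothelial cells and osteoclasts were not. This split depends on the measure. By mean log2(FPKM + 1), cardiomyocyte markers were lowest in perhexiline replicate 2 (9.38, with 9.42 in perhexiline replicate 3). Fibroblast markers were then not lowest there (5.55, with 5.50 in vehicle replicate 1). The macrophage genes Cx3cr1 and Marco were at 0 in all 6 libraries. Lower values were not particular to leukocyte markers, whose median log2 difference was -0.51. Of 9 cardiomyocyte markers 8 were below 0 and 4 fell, with a median of -0.37. Of 9 tested smooth muscle and pericyte markers 7 were below 0 and none was called, with a median of -0.37. Of all tested genes 3.11% were called lower. The mannose receptor gene Mrc1 went from 5.01 ± 0.638 to 2.24 ± 0.568 FPKM (limma adjusted p = 0.0221), and the lysozyme gene Lyz2 stood at 48.2 ± 2.82 and 33.3 ± 8.34 (adjusted p = 0.0956). In a culture of mixed cells, fewer cells of a type and less RNA per cell cannot be told apart. The part of the leukocyte markers, or of any other cell type, in the levels of Gpnmb was not tested. Markers of osteoclasts and fused macrophages, which also make Gpnmb, summed to 5.995 to 7.96 FPKM with vehicle and 7.62 to 7.73 with perhexiline, with Dcstamp at 0 in all libraries.

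None of the other 5 membrane protein genes passed. Lamp1 and Lamp2 encode the heavily glycosylated proteins that line the inside of the lysosomal membrane. Lamp1 stood at 140.5, 139.6 and 151 FPKM with vehicle and at 153, 158 and 150 with perhexiline. The groups overlapped, and the log2 difference was 0.09, with a 95% interval from -0.02 to 0.21 (limma adjusted p = 0.273). Lamp2 stood at 78.4 ± 1.98 and 82.4 ± 2.00 FPKM (adjusted p = 0.357). The ratio of Lamp1 to Lamp2 was 1.81 to 1.88 with vehicle and 1.82 to 1.90 with perhexiline. Scarb2, which carries glucocerebrosidase to the lysosome, stood at 61.8 ± 2.79 and 64.0 ± 0.819 FPKM, and Cln3, the gene of juvenile Batten disease, at 8.22 ± 0.133 and 8.18 ± 0.833.

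Mcoln1 encodes TRPML1, the calcium channel of the lysosome. It stood at 25.6, 26.4 and 24.5 FPKM with vehicle and at 28.6, 29.5 and 28.4 with perhexiline. The groups did not overlap, and the log2 difference of 0.17 ± 0.051 (SE) did not pass (limma adjusted p = 0.0877; 0.136 to 0.245 without 1 library). Only total-fragment scaling called it among the 16 alternatives.

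**Figure D3:**
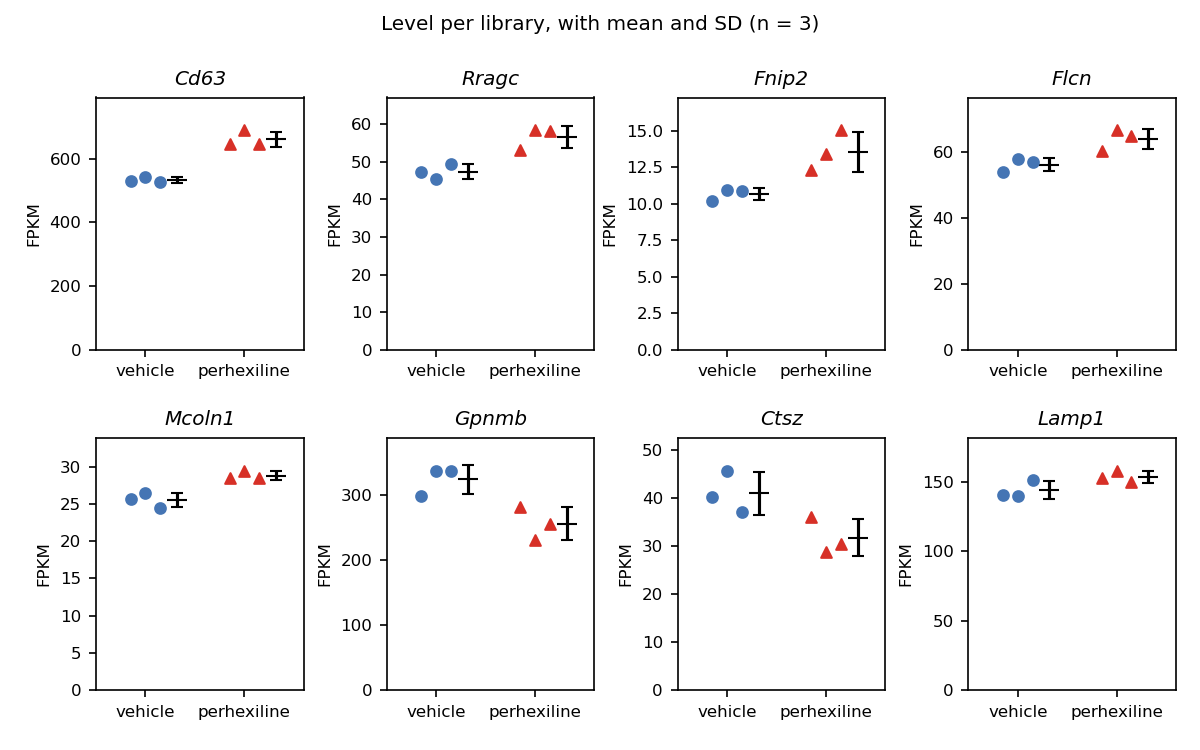
FPKM of 8 members in each library from 0 upwards, with vehicle as circles and perhexiline as triangles, and the mean with its SD (n = 3) beside the points. Cd63, Rragc, Fnip2, Flcn and Mcoln1 were higher and Gpnmb and Ctsz lower in every perhexiline library than in every vehicle library, whereas the groups of Lamp1 overlapped.

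The Rag and folliculin genes were the role with the largest median difference. Rag GTPases work as pairs on the lysosomal surface, where they recruit the growth kinase complex mTORC1, and folliculin with a partner such as FNIP2 acts on RagC and RagD. The median log2 difference of the 4 genes was 0.22, all 4 were above 0 under each of the scalings run, and 1 of the 4 rose. With 4 to 7 genes tested per role, 0 or 1 call in any role says little beside 6.66% of all tested genes. The 44 tested nutrient-sensing and MiT-TFE genes outside the members had a median of 0.02, with 25 above 0. Their summed FPKM was 132, 135 and 139.6 with vehicle and 148, 162 and 161 with perhexiline, without overlap.

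Rragc, the gene of RagC (chromosome 5, 141572536 to 141590781), stood at 47.4, 45.4 and 49.5 FPKM with vehicle and at 53.2, 58.4 and 58.1 with perhexiline. All perhexiline libraries were above all vehicle libraries. Rragc rose 1.19-fold, from 47.4 ± 2.08 to 56.6 ± 2.92 FPKM, by 0.25 ± 0.058 (SE) on the log2 scale (limma adjusted p = 0.0463). The call was lost without vehicle replicate 1 or 2 or perhexiline replicate 2 or 3 (adjusted p up to 0.152) and under upper-quartile scaling (0.0561), without the mean-variance trend (0.0887) and when low genes were kept in the test (0.0857). The paralog Rragd, the gene of RagD, was at 21.2 ± 1.00 and 23.0 ± 0.896 FPKM, which did not pass (adjusted p = 0.279). The ratio of Rragc to Rragd was 2.19 to 2.31 in vehicle libraries and 2.42 to 2.51 in perhexiline libraries.

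Flcn, the gene of folliculin, stood at 53.9, 57.8 and 56.9 FPKM with vehicle and at 60.5, 66.6 and 64.9 with perhexiline. Its groups did not overlap, and its log2 difference of 0.18 ± 0.055 (SE) did not pass (limma adjusted p = 0.0856). Fnip2 had the largest difference above 0 of the 35 members, 0.32 ± 0.082 (SE), from values of 10.2, 10.98 and 10.9 FPKM with vehicle and 12.3, 13.4 and 15.04 with perhexiline. These groups did not overlap either, and Fnip2 did not pass (adjusted p = 0.0604), though it was called higher with a mean FPKM of at least 5, under total-fragment scaling, with limma-voom and without perhexiline replicate 1.

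None of the 7 lysosomal protease genes passed, and the most abundant of them differed in direction. With limma-voom 1 of the 7 was called, Ctsz as lower, and 3 of the 7 had an unadjusted limma p under 0.05. Ctsb, the gene of the cysteine protease cathepsin B, stood at 384, 393 and 362 FPKM with vehicle and at 364, 326 and 338 with perhexiline. These groups overlapped only in that perhexiline replicate 1 exceeded vehicle replicate 3 (log2 difference -0.15 ± 0.058, SE; limma adjusted p = 0.16). Ctsd, the gene of the aspartic protease cathepsin D, stood at 339, 349 and 339 FPKM with vehicle and at 335, 301 and 297 with perhexiline. Its groups did not overlap, and its log2 difference was -0.14, with a 95% interval from -0.27 to -0.01 (adjusted p = 0.178).

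Ctsl, the gene of the cysteine protease cathepsin L, stood at 229, 216 and 237 FPKM with vehicle and at 242, 248 and 238 with perhexiline. Every perhexiline library was higher, by a log2 difference of 0.10 ± 0.05 (SE) that did not pass (limma adjusted p = 0.269). The ratio of Ctsb to Ctsl within a library was 1.53 to 1.82 with vehicle and 1.31 to 1.502 with perhexiline. Ctsz, the gene of the carboxypeptidase cathepsin Z, had the largest difference of the proteases. It stood at 40.1, 45.7 and 37.0 FPKM with vehicle and at 35.99, 28.7 and 30.4 with perhexiline, which is -0.36 ± 0.10 (SE) on the log2 scale (limma adjusted p = 0.0784). Its groups did not overlap, and perhexiline replicate 2 was the lowest library. Marker sums of macrophages, of fibroblasts and of smooth muscle and pericytes were also lowest there, and those of the other cell types were not. By mean log2(FPKM + 1), cardiomyocyte markers were lowest there too, and fibroblast markers were not. The part of the cell type markers was not tested here either.

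The remaining protease genes lay close together in the 2 groups. Ctsa, whose product protects other hydrolases as well as cutting peptides, stood at 170.5 ± 7.57 and 169 ± 2.79 FPKM. Tpp1, an aminopeptidase lost in a childhood form of Batten disease, stood at 57.9 ± 2.58 and 59.4 ± 1.72. Ctsk, the collagen-cutting cathepsin of osteoclasts and fibroblasts, stood at 6.76 ± 1.22 and 6.26 ± 0.362. Fibroblast markers summed to 1060 to 1100 FPKM with vehicle and 1018 to 1067 with perhexiline, and 2 of 10 rose (Dcn and Pdgfra) and 1 fell (Col3a1). When 1 library was left out, 0 to 2 of these markers rose and 0 or 1 fell, with 0 of either when vehicle replicate 1 or perhexiline replicate 2 or 3 was missing.

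None of the 7 glycosidase genes passed with limma or limma-voom, and 1 had an unadjusted limma p under 0.05. That gene was Gaa, which encodes the acid glucosidase that breaks down glycogen and is lost in Pompe disease, a disease of heart and skeletal muscle. Gaa stood at 49.97, 57.5 and 54.1 FPKM with vehicle and at 59.1, 57.6 and 62.3 with perhexiline. The groups were separate by a narrow margin, and the log2 difference of 0.15 ± 0.063 (SE) did not pass (limma adjusted p = 0.193). Hexa, the alpha subunit of hexosaminidase A, stood at 43.1, 43.5 and 38.0 FPKM with vehicle and at 41.8, 41.9 and 39.0 with perhexiline, with overlap (adjusted p = 0.874). Gla, the galactosidase gene of Fabry disease, stood at 10.5 ± 1.08 and 12.0 ± 0.729 FPKM (adjusted p = 0.241), and the sialidase gene Neu1 at 20.6 ± 0.967 and 22.7 ± 1.31 (adjusted p = 0.224). The beta-galactosidase gene Glb1, used as a senescence marker at the protein level, stood at 13.4 ± 0.515 and 12.3 ± 0.842 FPKM. Naglu, which trims heparan sulfate, stood at 11.8 ± 1.34 and 12.5 ± 0.653, and the glucuronidase gene Gusb at 10.2 ± 1.04 and 9.85 ± 0.859.

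None of the 4 lipid-handling genes passed with limma or limma-voom, and none had an unadjusted p under 0.05. All 4 differences were below 0, and 2 of the 4 were above 0 under total-fragment scaling. Psap encodes prosaposin, the precursor of the proteins that present sphingolipids to their hydrolases. It stood at 375, 387 and 389 FPKM with vehicle and at 369, 375 and 370.4 with perhexiline. Its groups were separate by a small margin, with a log2 difference of -0.05 and a 95% interval from -0.15 to 0.05 (limma adjusted p = 0.531). Smpd1, the acid sphingomyelinase that cationic amphiphilic drugs are known to displace from the lysosomal membrane, stood at 54.6, 59.5 and 55.1 FPKM with vehicle and at 55.9, 49.2 and 55.1 with perhexiline. The groups overlapped (adjusted p = 0.48). Pla2g15, the lysosomal phospholipase whose inhibition is linked to drug-induced phospholipidosis, was the least abundant tested member, at 3.34 ± 0.31 and 2.99 ± 0.188 FPKM (adjusted p = 0.47). Its 95% interval ran from -0.35 to 0.11, and its values rest on 112 to 146 fragments per library. Lipa, the acid lipase that frees cholesterol and fatty acids, stood at 34.5 ± 1.28 and 33.7 ± 0.687 FPKM (adjusted p = 0.721).

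The proton pump genes lay close together in both groups. The V-ATPase has a V1 sector in the cytoplasm that splits ATP and a V0 sector in the membrane that conducts protons. None of the 6 tested members passed with limma or limma-voom, and none had an unadjusted p under 0.05. Summed FPKM over the 7 genes was 349, 343 and 348 with vehicle and 342, 342 and 337 with perhexiline. In the deposited scaling these sums did not overlap, by a narrow margin, and their means differed by -1.86%. The median log2 difference of the 6 was -0.04, and 0.01 under total-fragment scaling. The 95% interval of each of the 6 lay within 0.3 of 0 on the log2 scale.

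Atp6ap1, an accessory subunit needed for assembly, stood at 106.5, 102 and 97.1 FPKM with vehicle and at 98.7, 93.0 and 93.2 with perhexiline, with overlap (limma adjusted p = 0.262). Atp6v1b2, a B subunit of the V1 sector, stood at 62.2, 64.2 and 61.9 FPKM with vehicle and at 65.9, 67.6 and 66.8 with perhexiline. These were separate, with a log2 difference of 0.09 and a 95% interval from -0.01 to 0.19 (adjusted p = 0.235). Atp6v1a, whose product pairs with the B subunit in the catalytic ring, stood at 35.6 ± 0.987 and 33.7 ± 1.36 FPKM (adjusted p = 0.406). The ratio of Atp6v1b2 to Atp6v1a was therefore 1.69 to 1.85 with vehicle and 1.94 to 2.05 with perhexiline.

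The remaining pump genes were Atp6v0a1, which forms part of the proton channel, at 62.7 ± 1.42 and 60.4 ± 0.396 FPKM, Atp6v0d1, which joins the sectors, at 43.9 ± 3.24 and 46.0 ± 2.70, and Atp6v1h, a regulatory V1 subunit, at 38.9 ± 2.80 and 37.9 ± 1.78. Atp6v0d2, the d subunit paralog of osteoclasts and macrophages, was the single member under the filter on low values and was not tested. It stood at 0.834, 1.08 and 0.616 FPKM with vehicle and at 0.622, 0.457 and 0.453 with perhexiline, from 10 to 23 fragments per library, and its groups overlapped.

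**Figure D4:**
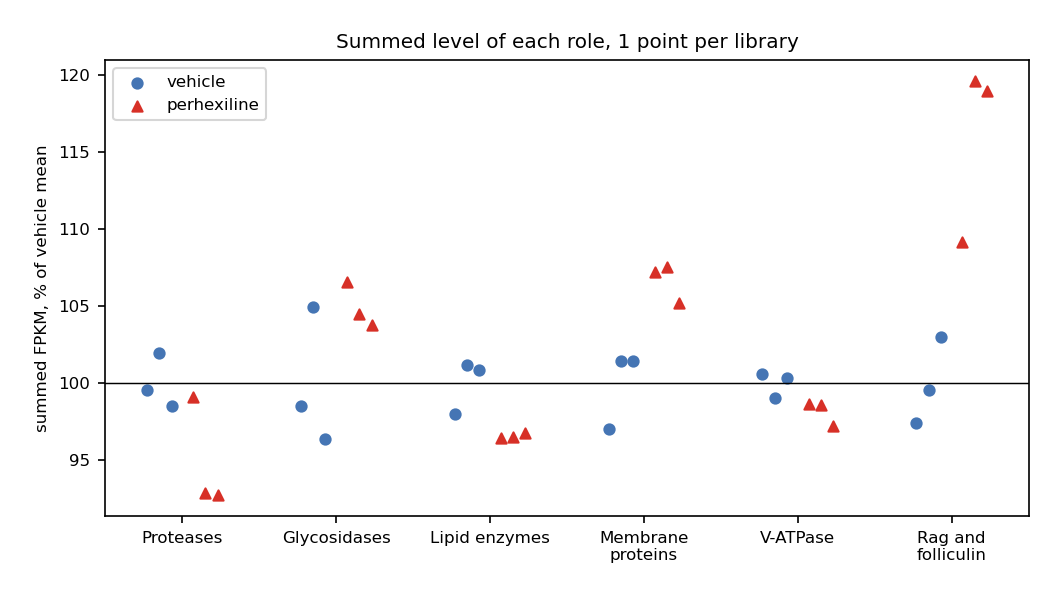
Summed FPKM of the members of each role in each library as a percentage of the vehicle mean, with vehicle as circles and perhexiline as triangles. The Rag and folliculin sums stand 15.9% above the vehicle mean on average, and the V-ATPase sums lie within 3% of it.

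Members whose start region held CACGTG are set beside the others here as a description, without a test. Of the 8 with the hexamer, 1 was called and 5 had a difference above 0, with a median log2 difference of 0.08 and a range from -0.14 to 0.31. Of the 20 without it, none was called, 9 were above 0, and the median was -0.02, from -0.36 to 0.32. Over all tested genes 6.66% were called and the median was 0.01. Tested genes with CACGTG outside the members were not set beside these, so the 2 medians show no link to the motif. The other called member, Rragc, had no region at hand and is in neither set. Lamp1, with 5 hexamers, and Cd63, with 1, differed by 0.09 and 0.31 on the log2 scale.

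Of 157 tested genes outside the 36, listed under the lysosome, its pump or its nutrient sensing, 11 were called, or 7.01%, beside 6.66% of all tested genes. Of 90 tested other lysosomal genes (104 symbols listed, 96 in the table), 2 rose and 2 fell, and the median log2 difference was -0.01. The rises were those of Pip4p1, a phosphoinositide phosphatase of the lysosomal membrane, from 33.1 ± 1.95 to 41.7 ± 1.70 FPKM, and Litaf, an endosomal sorting protein induced by lipopolysaccharide, from 26.3 ± 0.374 to 33.0 ± 2.21. The falls were those of Aga, which cuts sugars from asparagine, from 27.4 ± 1.31 to 21.0 ± 0.308 FPKM (limma adjusted p = 0.0185), and of the sorting receptor gene Sort1, from 26.5 ± 0.456 to 21.4 ± 1.59.

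Of 23 tested V-ATPase subunits and regulators outside the 36, 1 rose and 2 fell. Atp6v1f, a small V1 subunit, went from 104, 106 and 112 FPKM to 132, 137 and 128. Atp6v1g2, the form of the G subunit known from neurons, went from 13.03, 15.3 and 14.6 FPKM to 11.4, 9.89 and 10.1, and Oxr1, an oxidation resistance protein with a domain that binds the pump, from 23.4 ± 1.38 to 18.1 ± 0.708. The widespread G subunit form Atp6v1g1 stood at 159 ± 4.28 and 201 ± 24.3 FPKM without passing (limma adjusted p = 0.0574). Its ratio to Atp6v1g2 was 10.1 to 12.5 in vehicle libraries and 15.9 to 23.0 in perhexiline libraries, a separation that follows from that of each gene in opposite directions.

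Of 44 tested genes in the list of nutrient-sensing and MiT-TFE genes, which also took in calcineurin genes, 3 rose and 1 fell. Ddit4, which restrains mTORC1, went from 11.2, 11.3 and 9.98 FPKM to 21.8, 22.2 and 19.7 (limma adjusted p = 0.00508) and was called in all 16 alternatives. Rcan1, a calcineurin regulator and itself a calcineurin-responsive gene, went from 222 ± 14.4 to 303 ± 25.01 FPKM, and Lamtor1, the anchor of the Rag GTPases on the lysosome, from 60.6 ± 1.80 to 70.9 ± 3.21. The fall was that of Mitf, from 10.2, 9.60 and 10.3 FPKM to 8.07, 8.11 and 7.998 (adjusted p = 0.0414). No fit without 1 library called Mitf (adjusted p from 0.0753 to 0.13).

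Apart from Ddit4, the calls among these related genes were also lost in several of the fits that left out 1 library, without a change of sign. Pip4p1, Litaf, Atp6v1f, Oxr1 and Rcan1 were called only without vehicle replicate 3 or perhexiline replicate 1 among the 6 fits without 1 library, and Sort1, Atp6v1g2 and Lamtor1 only without perhexiline replicate 1 (adjusted p up to 0.145). Aga lost its call without vehicle replicate 2 or perhexiline replicate 2 or 3 (adjusted p up to 0.066).

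The relatives of Mitf, named after their values were seen, did not pass. Tfeb stood at 22.8, 24.9 and 23.9 FPKM with vehicle and at 25.4, 23.1 and 25.8 with perhexiline, with overlap (limma adjusted p = 0.664). Tfe3 stood at 19.3, 19.4 and 21.6 FPKM with vehicle and at 22.3, 23.7 and 25.2 with perhexiline (adjusted p = 0.086). The ratio of Tfe3 to Mitf was 1.89 to 2.10 in vehicle libraries and 2.77 to 3.16 in perhexiline libraries. This separation follows from that of each gene, in opposite directions, and adds no evidence. RNA levels do not report where these factors lie in the cell, and neither protein nor enzyme activity was measured in these libraries.

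**Figure D5:**
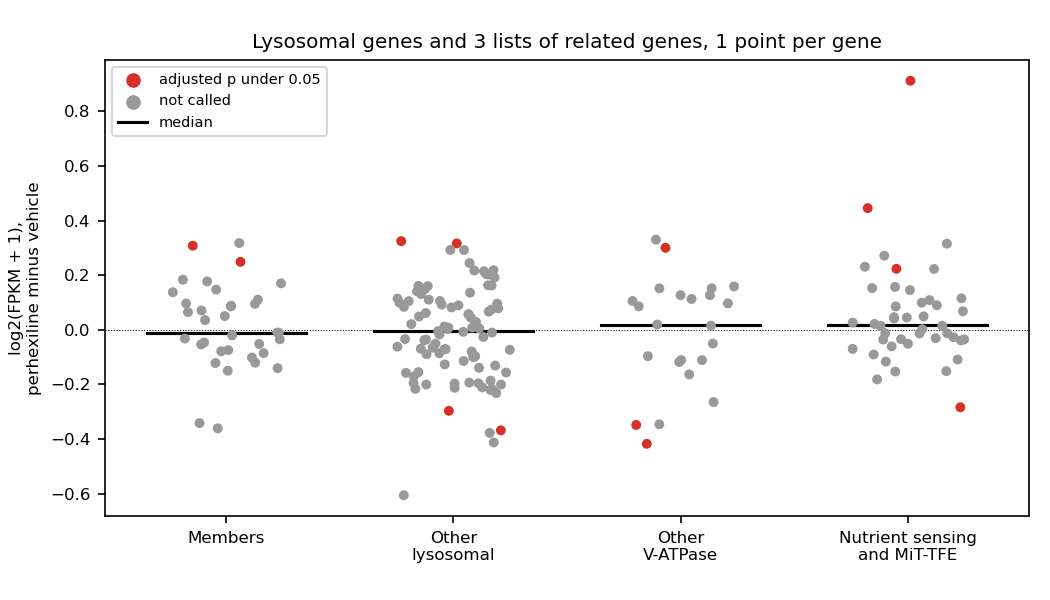
Difference in log2(FPKM + 1) between perhexiline and vehicle for each tested gene of the 36 members and of 3 lists of related genes, with the median as a bar and called genes in red. The medians lie between -0.01 and 0.02, and Ddit4, at 0.91, is the farthest from 0.

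The labelled cell type was checked against its markers. Cardiomyocyte genes were abundant in all libraries, with the 9 markers in the table summing to 14490, 14080 and 11930 FPKM with vehicle and 13000, 11430 and 11330 with perhexiline, and 4 of the 9 fell (0 to 5 in the fits without 1 library, with 0 without vehicle replicate 1 or 2 or perhexiline replicate 2 or 3). Endothelial markers summed to 18.3 to 21.5 FPKM and smooth muscle and pericyte markers to 1157 to 1779, genes of which immature heart muscle cells share some, and limma called none of the 5 and 9 tested (0 and 4 with limma-voom, 0 and 6 at an unadjusted p under 0.05). Of the smooth muscle and pericyte markers, 3 fell without vehicle replicate 3 and 2 without perhexiline replicate 1.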

How the data were processed

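RNA-seq of 6 libraries (3 vehicle, 3 perhexiline) was analysed from the table of FPKM deposited by the authors, with 1 column per library per the file headers and a gene length in bases. HISAT2 2.0.5 and DESeq2 are named, with no role, per the submitters' processing notes. For build, annotation, counting program and use of strand, nothing is stated in the sources used here, and reads of paralogs, pseudogenes or overlapping genes cannot be told apart.

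The test was limma 3.58.1 (R 4.3.3), fitted to log2(FPKM + 1) for genes that reached 1 FPKM in 3 or more libraries, two-sided, with moderated variances that followed a mean-variance trend and no term besides group. This scale understates changes of low genes. A count model had been planned in case the table held counts. FPKM times gene length gave whole multiples of 1 step per library for 100% of positive values (tolerance 0.01), taken as fragments for depth and limma-voom. On simulated data the procedure recovered 81.4% of changes of 1.5-fold, and 6.59% of its calls were false. The changed genes were drawn only from those with a mean FPKM of at least 5. Each gene's variability came from a smooth curve of level, without spread between genes, so recovery in the real data could be lower. Smaller folds, such as those of the tested members, were not simulated. Alternatives were other scalings, filters, pseudocounts and models, a replicate block, and each library left out.

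The members and lists were chosen with earlier results of these data known. The rule was to give called members and the 2 most abundant of each role library by library, and to name up to 4 called genes from each list of related genes. Other genes with values were chosen after these were seen.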

Additional observations from a re-analysis of the deposited data

How the results depend on the processing

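Of the 35 tested members, 29 were called in no fit and 4 (Gpnmb, Fnip2, Ctsz and Mcoln1) only in some of the 16 alternatives. Of the 36 members, 8 changed sign in at least 1 alternative, none of them called in any fit. For the members called, against 2, there were 0 with no filter on low values, 4 with a mean FPKM of at least 5, 4 under total-fragment scaling, 5 with limma-voom and 1 without the trend. With 1 library left out they numbered 0 to 5, with 0 in 4 of these 6 fits, in which 7 or 8 members had an unadjusted p under 0.05.

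With no filter, with limma-voom and without the trend, in that order, all called genes numbered 162, 1570 and 373 against 896, other lysosomal genes 1, 9 and 1 against 4. In the same order, other V-ATPase genes numbered 0, 4 and 0 against 3 (10 with no filter and 9 without the trend at an unadjusted p under 0.05), and nutrient-sensing genes 1, 6 and 1 against 4. Leaving out 1 library gave 108 to 894 genes in all (108 without perhexiline replicate 3, 136 without vehicle replicate 1, 140 without vehicle replicate 2 and 145 without perhexiline replicate 2), 0 to 6 other lysosomal, 0 to 5 other V-ATPase and 1 to 4 nutrient-sensing genes. The cause was not tested. The share of higher calls was 70.7% under total-fragment scaling and 46.7% under upper-quartile scaling against 53.3%.

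The replicate block gave 173 genes in all, 0 members, 0 other lysosomal, 0 other V-ATPase and 1 nutrient-sensing gene (8, 22, 8 and 10 at an unadjusted p under 0.05). Libraries that share a number share nothing else by their labels, and their deviations from the group means correlated at -0.0228, -0.101 and -0.0387, so the numbers were not taken as pairs. The count models edgeR, planned only for a table of counts, and DESeq2 were not run because the deposited unit is FPKM. Of the fits run, only limma-voom used the recovered fragments as counts. Fragments per library numbered 10 to 23 for Atp6v0d2, 112 to 146 for Pla2g15 and 106 to 161 for Ctsk, the members with the fewest.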
